A study of Homo sapiens with 6 samples.

Results

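Microtubules are built from dimers of alpha- and beta-tubulin, and human cells encode each subunit in several genes, the isotypes, whose products differ mainly in a short acidic tail at the C-terminus. The level of tubulin RNA is itself under feedback: when free dimers are in excess, the factor TTC5 recognises the first residues of tubulin as it leaves the ribosome and the CCR4-NOT complex removes the messenger. In dividing carcinoma cells the tubulins serve both the interphase network and the mitotic spindle. The genes described here are 10 tubulin isotypes, 4 alpha (TUBA1A, TUBA1B, TUBA1C and TUBA4A) and 6 beta (TUBB, TUBB2A, TUBB2B, TUBB3, TUBB4B and TUBB6). They were taken by symbol, through GENCODE 44, from the 58735 genes of the deposited table, and all 10 were found.

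RNA was sequenced from RKO, an established human colorectal carcinoma line, after exposure to EZA or to the vehicle DMSO, with 3 libraries a group that the study calls biological replicates. EZA is not spelled out in the labels, and neither its dose nor the duration of exposure is given in the sources used here. The libraries held 14070611 to 18840954 counts, of which the 10 tubulins took 0.336%, 0.352% and 0.341% in the DMSO libraries and 0.267%, 0.266% and 0.136% in the EZA libraries, replicates 1 to 3 in order. Of the epithelial markers, KRT18 was at 110 to 136 CPM (counts scaled to library size by TMM, per 1000000), KRT8 at 15.7 to 34.8 CPM and EPCAM at 6.57 to 8.20 CPM, while CDH1 was at 0 and KRT19 at most at 0.0638 CPM. Of the colon markers, CDX2 was at 11.4 to 22.0 CPM, with CDX1 and LGR5 at 0 and VIL1 near 0, and of 6 markers of other cells 4 were at 0, COL1A1 reached at most 0.353 CPM and ACTA2 was at 2.31 to 5.02 CPM. EZA replicate 3 stood apart: mitochondrial genes took 0.203% of its counts against 3.68% to 5.02% in the other libraries, and tubulin levels, calls and list counts are given with and without it. Fewer cells that express a gene and less RNA per cell cannot be told apart in bulk RNA.

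All 10 genes open with 4 codons of the kind that the feedback reads, in 6 different spellings. These openings of the coding sequence (GENCODE 44, GRCh38) are shown because the feedback reads this stretch; capitals mark codons 2 to 4.
TUBA1A, TUBA1B and TUBA1C: atgCGTGAGTGC
TUBA4A: atgCGTGAATGC
TUBB and TUBB4B: atgAGGGAAATC
TUBB2A: atgCGCGAGATC
TUBB2B: atgCGTGAGATC
TUBB3 and TUBB6: atgAGGGAGATC

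The last 60 bases of the coding sequence of 4 beta isotypes, with the stop codon in capitals, are shown because they bear on which reads can be assigned to which gene. Those of TUBB2A and TUBB2B differed at 2 positions.
TUBB: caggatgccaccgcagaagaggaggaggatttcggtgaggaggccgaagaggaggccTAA
TUBB4B: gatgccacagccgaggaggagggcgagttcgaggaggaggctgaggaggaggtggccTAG
TUBB2A: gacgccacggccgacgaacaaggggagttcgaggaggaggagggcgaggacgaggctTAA
TUBB2B: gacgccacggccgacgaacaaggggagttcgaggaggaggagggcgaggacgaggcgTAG

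Over the whole coding sequence TUBA1A and TUBA1B were 97.2% identical, TUBA1B and TUBA1C 96.8% and TUBB2A and TUBB2B 98.1%. TUBB and TUBB4B, the most abundant beta isotypes, were 84.4% identical. Windows of 100 bases were used to see how much of each messenger is its own. Of the windows in the main transcript of TUBB6, 0% occurred in an annotated transcript of another gene, and of those in TUBB4B 4.71% did. The share was 21.5% in TUBA1A, 21.7% in TUBB, 29.1% in TUBA4A, 31.6% in TUBA1C, 48.7% in TUBB2B, 55.6% in TUBB2A and 71.1% in TUBA1B. TUBA1B owed 65.4% to TUBA1B-AS1, an antisense gene with 5 to 18 counts a library, and shared 18.6% with TUBA1C and 18.5% with TUBA1A. TUBB3 reached 92.5% through a read-through gene (ENSG00000198211) that had 0 counts in every library. How shared reads were counted is not given in the sources used here, so the counts of every member but TUBB6 are uncertain to the extent of these shares.

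By FPKM, the deposited unit per length, 4 genes held most of the tubulin RNA in RKO cells: TUBA1B, TUBA1C, TUBB and TUBB4B together made up 94.998% to 95.1% of the summed FPKM of the 10 genes in DMSO and 93.5% to 94.6% in EZA. In DMSO the order of FPKM levels was TUBB4B at 484 ± 22.2 FPKM (SD, n = 3, as for the levels that follow), TUBB at 296 ± 3.09, TUBA1B at 178 ± 10.7 and TUBA1C at 101 ± 2.41. TUBA4A, an alpha isotype known from platelets and muscle, followed at 27.7 ± 2.09 FPKM, TUBA1A, the main alpha isotype of developing neurons, at 17.8 ± 1.97 and TUBB2A, an isotype abundant in brain, at 8.013 ± 0.419. The lowest were TUBB2B at 0.814 ± 0.144 FPKM, TUBB6 at 0.726 ± 0.0872 and TUBB3, the beta isotype used as a neuronal marker, at 0.178 ± 0.0733. Replicates of neighbours in this order overlapped only for TUBB2B and TUBB6. In EZA the ranges of TUBB and TUBA1B, TUBA1B and TUBA1C, TUBA1C and TUBA4A, TUBA4A and TUBA1A, and TUBB2B and TUBB6 overlapped. Within each EZA library, though, TUBB, TUBA1B, TUBA1C, TUBA4A and TUBA1A kept this order. In EZA replicate 3, the lowest EZA library for each of them, they were at 105, 42.8, 18.3, 13.8 and 10.7 FPKM.

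**Figure D1:**
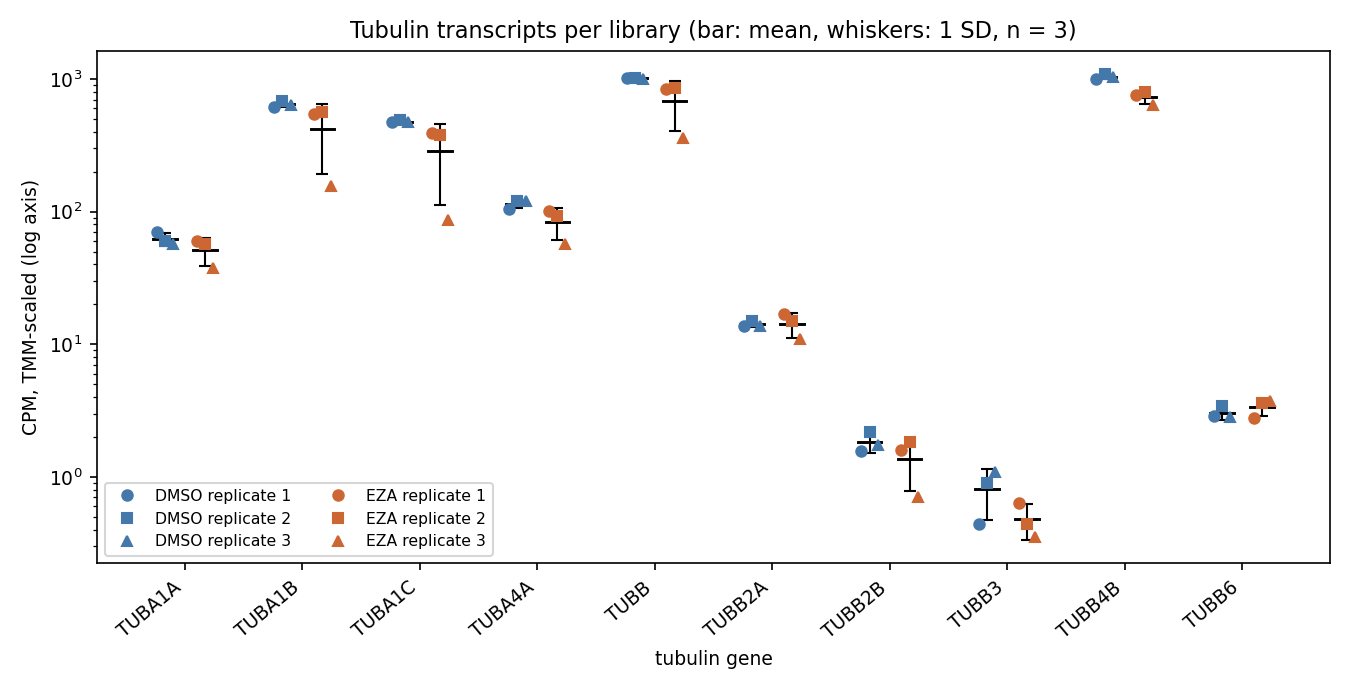
CPM of the 10 tubulin genes in each library on a logarithmic axis, with a point per replicate (DMSO blue, EZA orange), a bar at each group's mean and error bars of 1 SD (3 libraries a group). The 3 EZA libraries lie below all DMSO libraries for TUBA1B, TUBA1C, TUBA4A, TUBB and TUBB4B; EZA replicate 3 is the lowest of these in each.

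The comparison of EZA with DMSO asked which transcripts differ after treatment. For 5 tubulins, TUBA1B, TUBA1C, TUBA4A, TUBB and TUBB4B, every EZA library lay below every DMSO library, and for the other 4 tested the groups overlapped. Across all 13503 genes tested EZA lay wholly below DMSO in 21.7% and the groups did not overlap in either direction in 42.7%. Only TUBB4B passed the test, with an adjusted p below 0.05 in edgeR's quasi-likelihood test adjusted over all genes tested, which makes 1 of 9 members lower and 0 higher; of all genes tested 7.82% were called lower and 9.89% higher. That was 1056 genes lower and 1336 higher, and 1270 and 1059 when counts were scaled by library size alone. At an unadjusted p below 0.05 there were 2, TUBB4B and TUBA4A. The study's own threshold asks for a change of 1 or more on the log2 scale in either direction and an unadjusted p below 0.05; 0 of the 9 passed it, against 5.73% of all genes. The median log2 fold change of the 9 was -0.46, beside -0.01 over all genes tested; without EZA replicate 3 that of the 10 then tested was -0.24. TUBB3 had too few counts to be tested.

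TUBB4B, a broadly expressed beta isotype (ENSG00000188229, chromosome 9, 137241287 to 137243707, plus strand, GRCh38, 4 exons), was at 1008, 1091 and 1029 CPM in the DMSO libraries and at 764, 799 and 638 CPM in the EZA libraries, in replicate order. All 3 EZA libraries were lower, and the gap between the nearest libraries of the groups was larger than the range within either group. It fell by 0.51 on the log2 scale, to a level 29.7% lower (log2 fold change -0.51 ± 0.14, SE; edgeR adjusted p = 0.0414). Without EZA replicate 3 the log2 fold change was -0.41 (adjusted p = 0.00139); once the dependence of counts on GC content and length had been taken out it was -0.83 (adjusted p = 0.00793). The call was lost when any other library was dropped: the adjusted p was 0.142, 0.140 and 0.168 after dropping DMSO replicate 1, 2 or 3 in turn, and 0.0760 and 0.0554 after dropping EZA replicate 1 or 2. It was also lost with the replicate number as a block (0.0935).

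TUBB, the main beta-tubulin of most dividing cells (ENSG00000196230, chromosome 6, 30717435 to 30725538, plus strand), was at 1021, 1015 and 1008 CPM in DMSO and at 839, 857 and 360 CPM in EZA replicates 1 to 3. The DMSO libraries lay within a narrow band, EZA replicates 1 and 2 a little below it and EZA replicate 3 far below. The log2 fold change of -0.57 ± 0.29 (SE) missed the threshold (edgeR adjusted p = 0.200). Without EZA replicate 3 it was -0.26 and passed (adjusted p = 0.0420).

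TUBA1B, the chief alpha isotype here (ENSG00000123416, chromosome 12, 49127782 to 49131397, minus strand), was at 619, 689 and 637 CPM in DMSO and at 545, 563 and 156 CPM in EZA replicates 1 to 3. TUBA1C, on the same chromosome (ENSG00000167553, 49188736 to 49274600, plus strand), was at 472, 488 and 473 CPM in DMSO and at 393, 380 and 86.5 CPM in EZA. In both genes EZA replicates 1 and 2 were modestly below DMSO and EZA replicate 3 was several-fold below. The log2 fold changes of TUBA1B and TUBA1C, -0.62 ± 0.39 and -0.74 ± 0.47 (SE), missed the threshold (edgeR adjusted p = 0.297 and 0.3001). Without EZA replicate 3 they were -0.22 for TUBA1B (adjusted p = 0.0834) and -0.30 for TUBA1C, which then passed (adjusted p = 0.0183).

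TUBA4A (ENSG00000127824, chromosome 2, 219249710 to 219277902, minus strand) was at 105, 120 and 120 CPM in DMSO and at 100, 92.8 and 57.5 CPM in EZA replicates 1 to 3. Its log2 fold change was -0.46 ± 0.20 (SE; edgeR adjusted p = 0.140), and -0.25 without EZA replicate 3 (adjusted p = 0.0704). Its exons overlap those of STK16, a kinase gene on the other strand, over 628 bases, and the libraries do not mark strand. STK16 was at 17.9, 21.5 and 20.7 CPM in DMSO and at 26.7, 30.5 and 18.7 CPM in EZA, above its DMSO range in EZA replicates 1 and 2. How reads in the overlap were counted is not given, and their part in the TUBA4A values was not tested.

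TUBA1A (ENSG00000167552, chromosome 12, 49184686 to 49189080, minus strand) was at 69.9, 59.7 and 57.0 CPM in DMSO and at 59.7, 56.6 and 37.5 CPM in EZA replicates 1 to 3. EZA replicates 1 and 2 lay at the low edge of the DMSO range or just under it. Its log2 fold change was -0.28 ± 0.19 (SE; edgeR adjusted p = 0.324), and -0.10 without EZA replicate 3.

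The minor beta isotypes gave no call. TUBB2A (ENSG00000137267, chromosome 6, 3153497 to 3157544, minus strand) was at 13.7, 14.9 and 13.7 CPM in DMSO and at 16.8, 15.02 and 10.9 CPM in EZA, with 1 EZA library below the DMSO range and the other two above it. Its log2 fold change was 0.02 ± 0.18 (SE; edgeR adjusted p = 0.962), 0.18 without EZA replicate 3 and -0.31 after correction for GC content and length. TUBB6, a divergent beta isotype (ENSG00000176014, chromosome 18, 12307669 to 12344320, plus strand), was at 2.88, 3.45 and 2.81 CPM in DMSO and at 2.79, 3.59 and 3.75 CPM in EZA, which overlap. Its log2 fold change was 0.15 ± 0.22 (SE; edgeR adjusted p = 0.674) and it was the only tested member that was not lower in EZA replicate 3 than in the other EZA libraries.

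TUBB2B and TUBB3 were close to the limit of these libraries. TUBB2B (ENSG00000137285, chromosome 6, 3223324 to 3231730, minus strand) had 25, 34 and 27 counts in DMSO and 25, 33 and 10 in EZA, and its log2 fold change was -0.39 ± 0.37 (SE; edgeR adjusted p = 0.489), or -0.09 without EZA replicate 3. TUBB3 (ENSG00000258947, chromosome 16, 89921392 to 89938761, plus strand) had 7, 14 and 17 counts in DMSO and 10, 8 and 5 in EZA, 38 against 23 in all. With 92.5% of its windows shared with another gene, and the counting of shared reads not given, these counts may not be its full level.

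**Figure D2:**
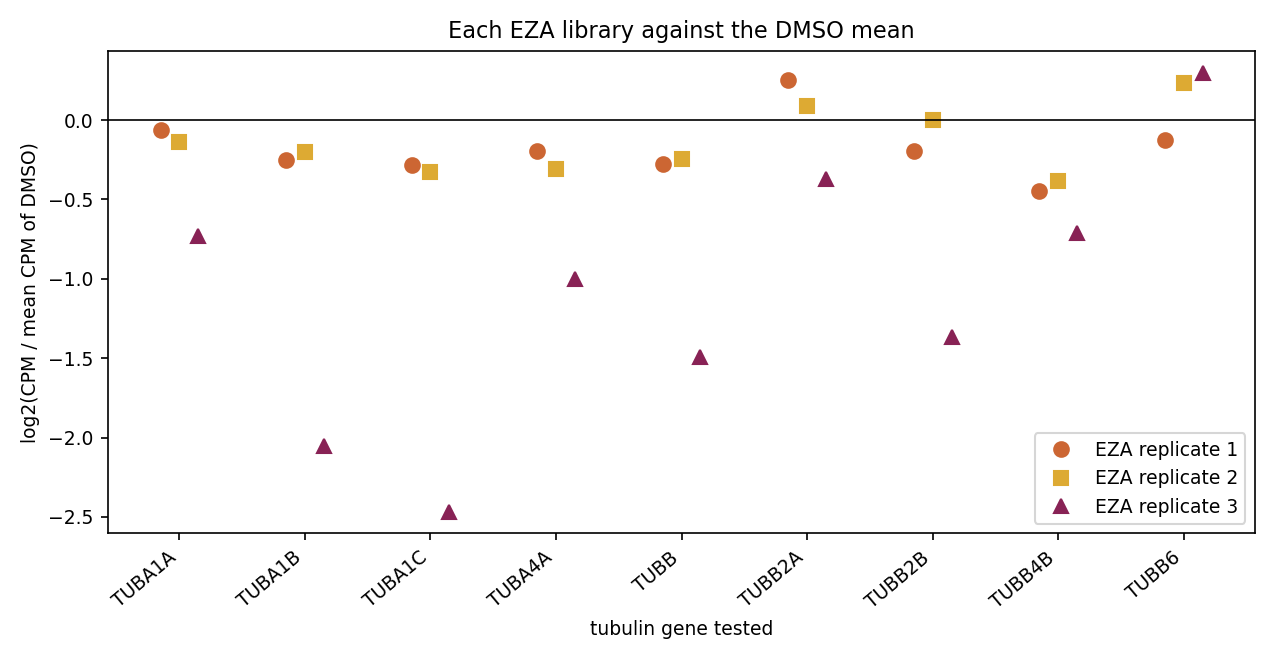
The log2 ratio of each EZA library's CPM to the mean CPM of the 3 DMSO libraries, for the 9 tubulins tested; circles, squares and triangles are EZA replicates 1 to 3 and the line at 0 is the DMSO mean. EZA replicates 1 and 2 lie between -0.45 and 0.25, while EZA replicate 3 reaches -2.05 in TUBA1B and -2.47 in TUBA1C.

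EZA replicate 3 was lower than the other EZA libraries in 8 of the 9 tubulins tested, by amounts that differed widely between isotypes. In TUBB4B, the member that passed the test, EZA replicates 1, 2 and 3 stood at -0.45, -0.38 and -0.71 against the DMSO mean on the log2 scale, whereas in TUBA1C they stood at -0.28, -0.33 and -2.47. Against the mean of EZA replicates 1 and 2, that library held 4.47-fold less TUBA1C, 3.55-fold less TUBA1B, 2.41-fold less TUBB2B and 2.35-fold less TUBB. TUBA4A was 1.68-fold lower, TUBA1A 1.55-fold, TUBB2A 1.46-fold and TUBB4B 1.23-fold. Of the 9 tubulins 4 were at least 2-fold lower in this way, beside 7.23% of all genes. Of all genes, 1.08% were as low as TUBA1C or lower, 1.88% as low as TUBA1B, 4.65% as low as TUBB and 28.4% as low as TUBB4B. The low mitochondrial share of the same library moves with these values, and its part in them was not tested. With that library left out, 3 of the 10 tubulins then tested were lower and 0 higher (TUBA1C, TUBB and TUBB4B), against 19.2% and 19.1% of all genes, and 0 of the 10 passed the study's threshold, against 5.33%.

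**Figure D3:**
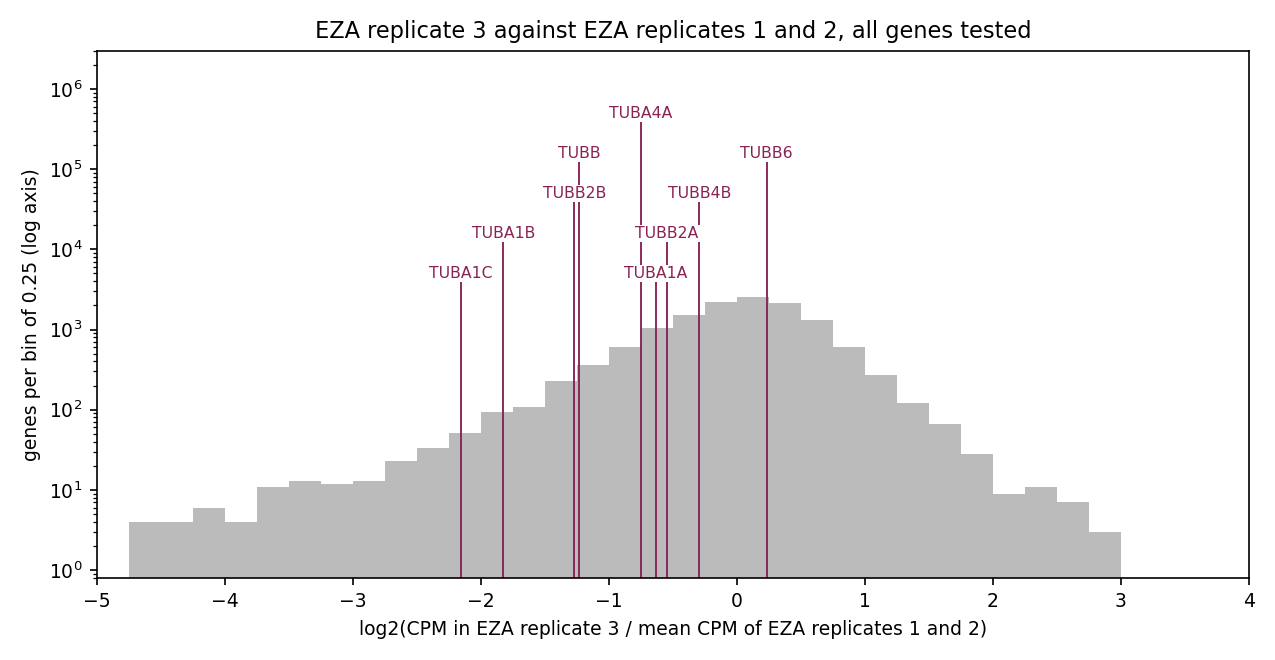
Grey bars count the genes tested that had reads in these libraries by their log2 ratio of CPM in EZA replicate 3 to the mean CPM of EZA replicates 1 and 2, in bins of 0.25 on a logarithmic axis; vertical lines mark 9 tubulins, and their height has no meaning (genes beyond the axis are not shown). TUBA1C at -2.16 and TUBA1B at -1.83 lie in the lower tail, while TUBB4B at -0.29 and TUBB6 at 0.23 lie near the middle.

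Summed over the 4 alpha members, FPKM was 315, 340.2 and 318 in DMSO and 275, 280 and 85.7 in EZA replicates 1 to 3. Over the 6 beta members it was 776, 818 and 777 in DMSO and 614, 646 and 409 in EZA. Tubulins outside the 10 are not in these sums, such as TUBAL3, at a mean of 7.36 FPKM in DMSO and 5.46 in EZA. Both sums were lower in every EZA library (mean ratio of EZA to DMSO 0.658 and 0.704; exact permutation test, two-sided, p = 0.1 for each, the smallest that 3 against 3 allows). Without EZA replicate 3 the ratios were 0.855 and 0.797. The ratio of alpha to beta FPKM was 0.406, 0.416 and 0.409 in DMSO and 0.448, 0.433 and 0.210 in EZA, so EZA replicates 1 and 2 lay above the DMSO range and EZA replicate 3 well below it (exact permutation p = 1).

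Within each class, the shares of TUBA1B, TUBA1C, TUBB and TUBB4B were closer to DMSO in EZA replicates 1 and 2 than in EZA replicate 3. In EZA replicates 1 and 2 the shares of TUBA1C, TUBB, TUBB4B, TUBB2A and TUBB6 still lay outside the DMSO range. TUBA1B made up 53.9%, 55.9% and 54.6% of alpha FPKM in DMSO and 54.6%, 56.5% and 50.0% in EZA replicates 1 to 3. TUBA1C made up 31.7%, 30.6% and 31.3% in DMSO and 30.4%, 29.4% and 21.4% in EZA, below DMSO in all 3 libraries. TUBB4B made up 60.4%, 62.3% and 61.1% of beta FPKM in DMSO and 58.1%, 58.7% and 72.4% in EZA. There, replicates 1 and 2 lay below the DMSO range and replicate 3 above it. TUBB made up 38.4%, 36.4% and 37.7% in DMSO and 40.1%, 39.6% and 25.7% in EZA. TUBB and TUBB4B held nearly all of the beta FPKM, so their shares mirror each other by arithmetic. TUBB2A made up 1.00%, 1.04% and 1.00% of beta FPKM in DMSO and 1.56%, 1.35% and 1.51% in EZA, higher in all 3 libraries. Among the 10 shares, those of TUBA1C, TUBB2A and TUBB6 separated the groups (exact permutation p = 0.1 each, Benjamini-Hochberg adjusted p = 0.333 over the 10), so no share passed, and with 3 against 3 none could.

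**Figure D4:**
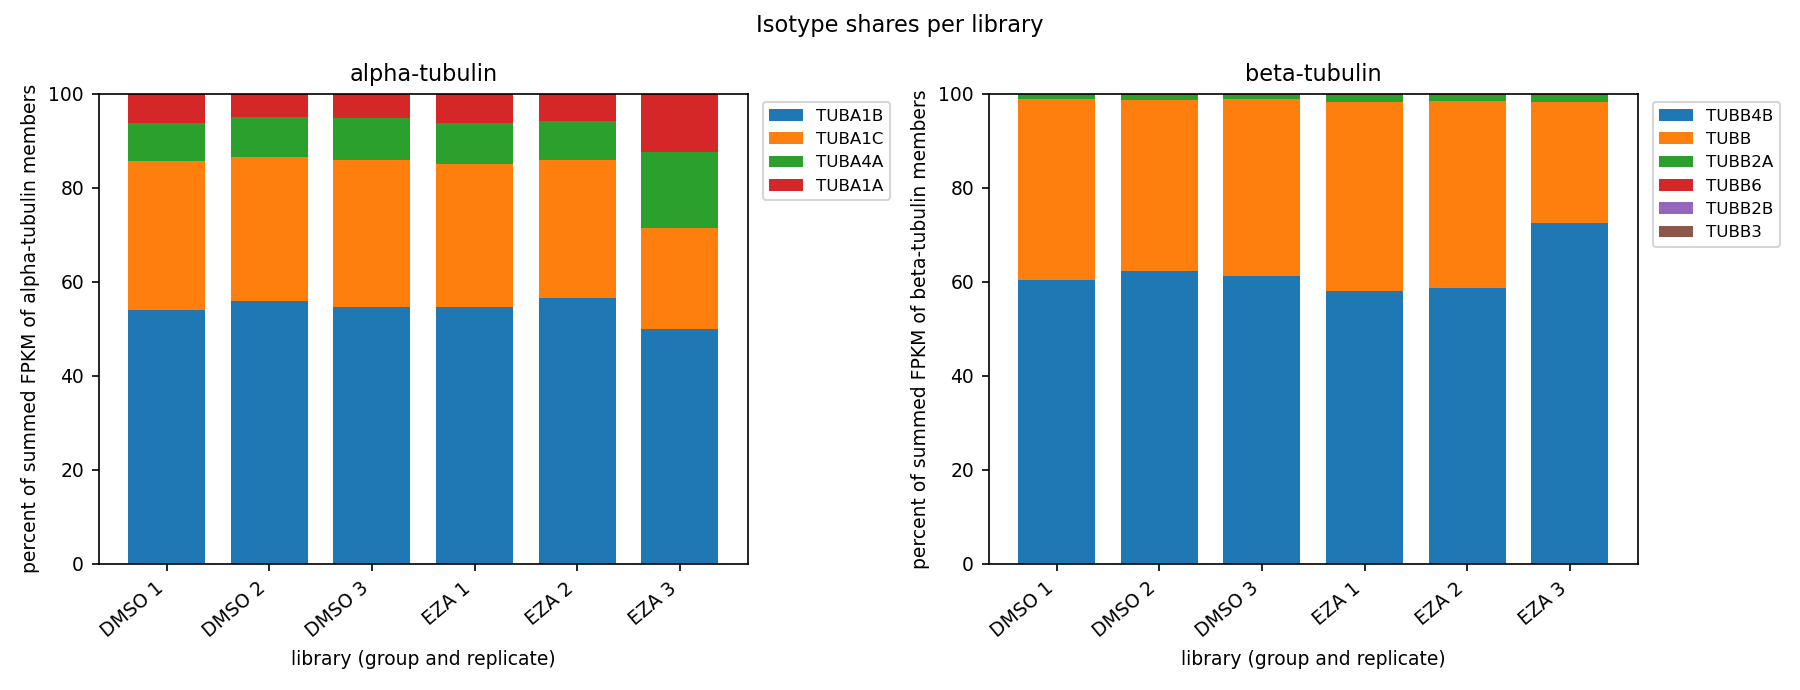
Stacked bars give the percentage of the summed FPKM of the alpha members (left) and beta members (right) that each isotype held in each of the 6 libraries. For TUBA1B, TUBA1C, TUBB and TUBB4B, the shares in EZA replicates 1 and 2 are closer to DMSO than those in EZA replicate 3. In EZA replicate 3 the TUBA1C share is 21.4% and the TUBB4B share is 72.4%.

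The genes whose profile over the 6 libraries was most like that of TUBA1B were BYSL, UFD1 and SH2D4A, with a Pearson r of log2(CPM + 1) of 0.998, 0.996 and 0.996, out of 7606 genes with at least 20 CPM on average. For TUBB they were RAB8A, BYSL and PPP2R5D, each with an r of 0.999. These are descriptions over 6 libraries that share the low point of EZA replicate 3: RAB8A was at 38.5, 37.5 and 39.9 CPM in DMSO and at 29.6, 30.2 and 9.68 CPM in EZA.

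Of 12 other tubulin genes, 6 were tested, 1 rose and 0 fell (median log2 fold change -0.25). Over all genes tested 9.89% rose and 7.82% fell. Without EZA replicate 3, 1 was higher and 1 lower, against 19.1% and 19.2% of all genes, and the median was 0.0038. TUBE1, epsilon-tubulin, which serves centriole structure, rose from 12.8 ± 1.70 CPM (SD, n = 3) to 26.5 ± 6.58 CPM (SD, n = 3), by 1.04 ± 0.21 on the log2 scale (SE; edgeR adjusted p = 0.0145), and was higher in 3 of 3 EZA libraries. Its values were 14.6, 11.2 and 12.8 CPM in DMSO and 29.4, 31.1 and 18.9 CPM in EZA, so the library in which the main tubulins were lowest was also the lowest EZA library for TUBE1, and still above DMSO. TUBD1, delta-tubulin, was at 4.73 ± 0.986 CPM in DMSO and 2.54 ± 0.827 in EZA and missed the threshold (adjusted p = 0.0588). TUBG1, the gamma-tubulin that nucleates microtubules, was at 90.8, 109 and 102 CPM in DMSO and at 98.0, 87.5 and 25.2 CPM in EZA (log2 fold change -0.52 ± 0.41; adjusted p = 0.398, and -0.12 without EZA replicate 3). As in TUBA1B, EZA replicate 3 was far below the other libraries. Unlike in TUBA1B, EZA replicate 1 lay within the DMSO range.

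Around the tubulins, 5 further lists held genes that act on tubulin or its messenger. With the other tubulins these made 120 genes, of which 100 were tested, 6 were higher and 16 lower, against 9.89% and 7.82% of all genes, with a median log2 fold change of -0.18. With EZA replicate 3 left out, 15 were higher and 37 lower, against 19.1% and 19.2% of all genes, and the median was -0.21. Of TTC5 and the CCR4-NOT subunits, 2 of 11 fell and 0 rose (median log2 fold change -0.35), and without EZA replicate 3, 6 were lower and 1 higher (median -0.32). The 2 that fell over all 6 libraries were the deadenylases CNOT6 and CNOT6L. They went from 104 ± 4.31 CPM to 79.0 ± 4.79 and from 71.3 ± 5.49 CPM to 51.1 ± 6.85 (edgeR adjusted p = 0.0461 and 0.0462). Their log2 fold changes of -0.40 and -0.48 were -0.08 and -0.05 after correction for GC content and length, with the calls lost. TTC5, the factor that binds nascent tubulin, was at 30.0, 32.0 and 29.6 CPM in DMSO and at 39.7, 43.7 and 30.0 CPM in EZA (log2 fold change 0.31 ± 0.16, SE; adjusted p = 0.209). Without EZA replicate 3 it was at 0.45 and passed (adjusted p = 0.00285).

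Of 21 genes that fold tubulin, namely prefoldin, the chaperonin CCT and the tubulin cofactors, 1 rose and 2 fell (median log2 fold change -0.01). Over all genes tested 9.89% rose and 7.82% fell. Leaving out EZA replicate 3 gave 4 higher and 5 lower (median -0.03), against 19.1% and 19.2% of all genes. TBCE, a cofactor that assembles the dimer, went from 13.9 ± 1.69 CPM down to 8.21 ± 0.148, with a log2 change of -0.76 ± 0.16 (SE; edgeR adjusted p = 0.0165); it overlaps B3GALNT2. CCT6A, a chaperonin subunit, fell from 501 ± 30.4 to 359 ± 19.6 CPM and PFDN2, a prefoldin subunit, rose from 117 ± 7.82 to 160 ± 18.6 CPM (adjusted p = 0.0330 and 0.0442). The calls of CCT6A and PFDN2 each held in 6 of the 14 alternatives. After the GC and length correction CCT6A was at -0.30 on the log2 scale and not called (adjusted p = 0.0827).

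Of 18 tested genes of tubulin modification, enzymes and a partner protein, 1 rose and 3 fell (median log2 fold change -0.11). Over all genes tested 9.89% rose and 7.82% fell. Without EZA replicate 3, 4 were higher and 4 lower (median -5.1e-05), against 19.1% and 19.2% of all genes. VASH2, a carboxypeptidase that removes the last tyrosine of alpha-tubulin, was at 7.32, 6.001 and 7.41 CPM in DMSO and at 2.79, 2.71 and 2.47 CPM in EZA. The groups lay far apart and EZA replicate 3 was close to the other EZA libraries. It fell by 1.37 on the log2 scale (log2 fold change -1.37 ± 0.19, SE; edgeR adjusted p = 0.00478), and the call held in all 14 alternatives run. Of the glutamylases, TTLL5 fell from 33.9 ± 1.12 CPM to 18.3 ± 2.86 and TTLL4 from 59.8 ± 3.36 CPM to 42.9 ± 5.29, while TTLL1 rose from 3.34 ± 0.151 to 6.19 ± 0.532 CPM (adjusted p = 0.00881, 0.0415 and 0.0162). These calls held in 12, 8 and 10 of the 14 alternatives. TTLL5 overlaps FLVCR2, ERG28 and IFT43.

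Of 19 tested genes of microtubule nucleation, 1 rose and 3 fell (median log2 fold change -0.25), against 9.89% and 7.82% of all genes. With EZA replicate 3 left out, 3 were higher and 9 lower (median -0.26), against 19.1% and 19.2% of all genes. NEDD1, which brings the gamma-tubulin ring to the centrosome, fell from 33.9 ± 5.22 to 20.6 ± 1.64 CPM, HAUS6, an augmin subunit, from 89.3 ± 10.6 to 58.4 ± 8.60 CPM, and AKAP9, an anchor at centrosome and Golgi, from 27.4 ± 0.997 to 16.3 ± 5.16 CPM (edgeR adjusted p = 0.0195, 0.0296 and 0.0451). MZT2A, a small subunit of the ring, rose from 101 ± 14.1 to 194 ± 67.4 CPM (adjusted p = 0.0285); the EZA libraries held 145, 165 and 271 CPM, and its log2 fold change of 0.94 was 0.62 without EZA replicate 3 (edgeR adjusted p = 3.4e-05). Its near copy MZT2B was at 44.1 ± 3.94 and 57.4 ± 11.7 CPM (adjusted p = 0.149), and the pair can share reads. Corrected for GC content and length, the log2 fold changes of NEDD1, HAUS6, AKAP9 and MZT2A were -0.31, -0.23, -0.39 and 0.37, from -0.72, -0.61, -0.76 and 0.94, and none was called.

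Of 25 tested regulators of microtubule dynamics, 2 rose and 6 fell (median log2 fold change -0.20), against 9.89% and 7.82% of all genes. With EZA replicate 3 left out, 2 were higher and 12 lower (median -0.27), against 19.1% and 19.2% of all genes. CLASP2 and CLASP1, which stabilise growing ends, fell from 58.3 ± 2.23 CPM to 34.9 ± 2.12 and from 94.5 ± 3.62 CPM to 63.5 ± 6.85 (edgeR adjusted p = 0.00833 and 0.0209). FIGNL1, of the severing enzyme family, fell from 31.9 ± 3.43 to 20.6 ± 2.46 CPM (adjusted p = 0.0276). CLIP2, a linker protein of the CLIP family, rose from 58.8 ± 5.73 CPM to 129 ± 26.3, or by 1.14 ± 0.17 on the log2 scale (SE; adjusted p = 0.00547), and held in 13 of 14 alternatives. Corrected for GC content and length, the log2 fold changes of CLASP2, FIGNL1 and CLIP2 were -0.46, -0.32 and 0.74, from -0.74, -0.63 and 1.14. The call of FIGNL1 was then lost.

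**Figure D5:**
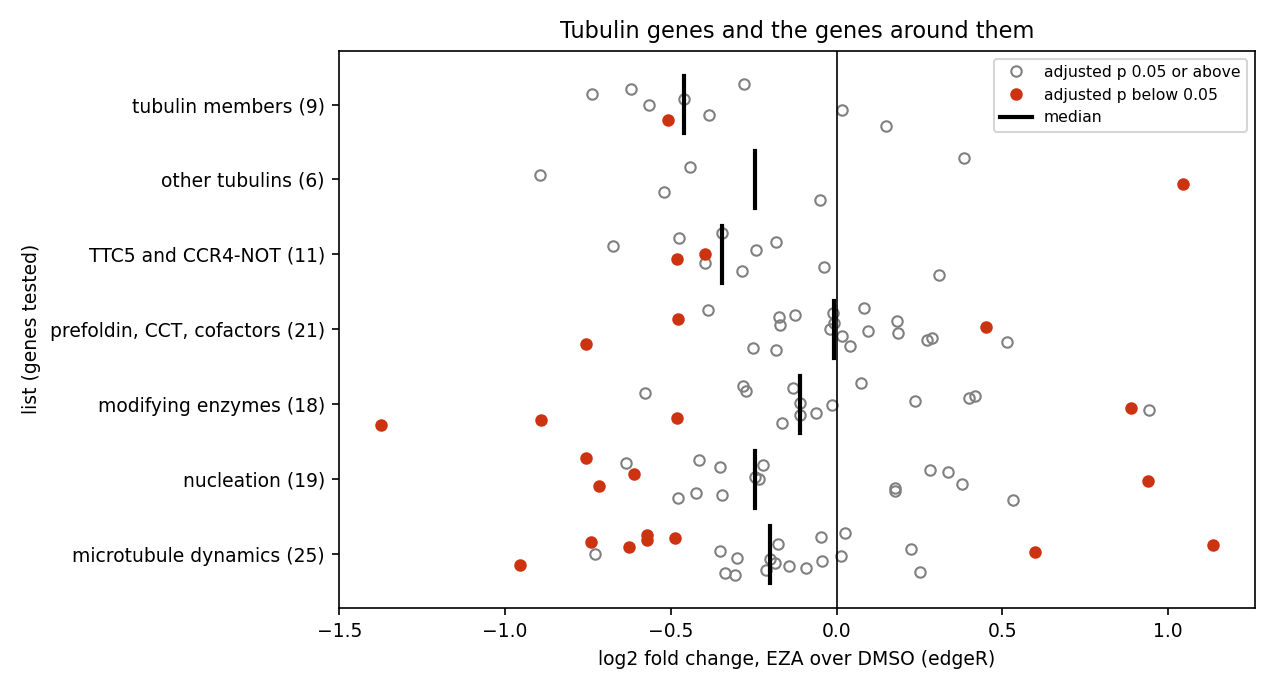
Log2 fold change, EZA over DMSO, of each gene tested, by list, with the number tested in parentheses; filled red points had an adjusted p below 0.05 and the black bar is the list's median. The tubulin members have a median of -0.46 with 1 call over all 6 libraries, TUBE1 stands at 1.04 among the other tubulins and VASH2 at -1.37 among the modification genes.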

How the data were processed

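Libraries came from oligo(dT)-selected RNA and kept no strand information, per the labels. FastQC, HISAT2, featureCounts, DESeq2 and GRCh38 (hg38) appear in the submitters' processing notes. Tool versions, counting options and the annotation behind the counts are not given. The counts that the authors deposited are whole reads for each Ensembl identifier; the FPKM deposited beside them come to each count over a single gene length and a library total. Symbols, positions and sequences came from GENCODE 44, which held 58207 of the 58735 identifiers.

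After filterByExpr and TMM scaling, EZA was compared with DMSO, without covariates, by edgeR's robust two-sided quasi-likelihood test with Benjamini-Hochberg adjustment over 13503 genes. CPM are counts per 1000000 after this scaling. FPKM served to compare levels between genes and to form class sums and shares. Standard errors were derived from the F statistic, and since no separate cultures are described, the spread behind each p-value is that among these libraries and may be technical. The common biological coefficient of variation was 18.4%. On simulated counts with the 2 groups' depths and 13340 genes, the test recovered 80% of 100 genes changed 2-fold and 98% of 100 changed 4-fold, with 3 false calls. Every simulated gene had the same dispersion, 0.03, and no simulated library stood apart as EZA replicate 3 does. The recovery therefore does not carry over to genes that vary more between libraries, such as most of the abundant tubulins. Replicates differed by more than counting noise, so none was counted as a copy. Counts of overlapping genes and near-identical copies are uncertain.

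The tubulins and lists were chosen with earlier results of these data known. Named were all 10 members, TTC5, up to 3 called genes with the smallest adjusted p in each direction per list, and the 3 genes most like TUBA1B and TUBB; TUBD1, TUBG1, MZT2B and STK16 were added after their values were seen. Some items that the rule names are not reported here. Alternatives were other scalings, no filter, DESeq2, limma-voom, the replicate block, removal of the GC and length trend (lowess, span 0.3) and each library left out. The work was done in Python 3.11.15 and R 4.3.3 (DESeq2 1.42.0, edgeR 4.0.16, limma 3.58.1).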

Additional observations from a re-analysis of the deposited data

How the results depend on the processing

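The number of tubulins called lower was 1 and became 3 with no filter on low counts and 0 with the replicate block, and ran from 0 to 3 with each library left out in turn; 0 were higher or past the study's threshold under the alternatives run. TUBA4A and TUBB passed with no filter (edgeR adjusted p = 0.0341 and 0.0108). In the 6 lists, 16 genes were called lower and 6 higher; with the GC and length trend removed 10 were lower, and with the trend removed and the replicate block 4 were lower and 2 higher. With each library left out these counts ran from 1 to 37 lower and from 0 to 15 higher, and those past the study's threshold, 3 in the main test, from 3 to 7. Same-numbered replicates did not deviate together (correlations 0.03, -0.17 and 0.03), and not every library correlated best with its own number. These values show no pairing by the titles' numbers. Deviations from means of 3 libraries, with EZA replicate 3 far from the others, cannot decide whether libraries were paired. The block took the calls over all genes from 2392 to 1970. Those calls numbered 1539 with the trend removed, 604 with the trend removed and the block, and 220 to 5289 with each library left out (220 without DMSO replicate 1, 254 without DMSO replicate 3, 787 without DMSO replicate 2 and 5289 without EZA replicate 3).

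The direction was the same under all alternatives for TUBA1A, TUBA1B, TUBA1C, TUBA4A, TUBB, TUBB2B and TUBB4B. The log2 fold change of TUBB2A was -0.034 with library size alone, -0.0016 in limma-voom, -0.0049 with the replicate block, -0.31 with the trend removed and -0.33 with both, and -0.12 to 0.18 with each library left out. That of TUBB6 was -0.084 with the trend removed and -0.090 with the block as well. Leaving out each library turned the EZA minus DMSO difference of some FPKM shares, in percentage points: TUBA1B ran from -2.50 to 0.74, TUBA4A from -0.0274 to 3.95, TUBB from -4.83 to 2.36, TUBB4B from -2.86 to 4.33, TUBB2B from -0.00598 to 0.0199 and TUBB3 from -0.00834 to 0.000800. The share of TUBA1B was 2.97 points higher without the 2 lowest members of each class. The alpha to beta ratio differed by -0.0468, and by -0.0891 to 0.0302 with each library left out.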
